A study of Oryza sativa with 4 samples.

Results

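Sucrose synthases and invertases are the enzymes that open the use of sucrose in a plant cell, and their transcripts were compared between rice coleoptiles germinated in air and without oxygen. The genes were taken as every gene whose symbol or synonym in the RefSeq gene table is SUS, INV or CIN followed by a number, which gave 14 genes, 7 sucrose synthases (SUS1 to SUS7) and 7 invertases (CIN1 to CIN6 and INV1, which is also named CIN7). They stand among 17905 genes that the array's annotation ties to a probe set of their own. Of the 14 genes, 11 had such probe sets, 13 in all, while SUS7, CIN5 and CIN6 had none and are not analysed here. The rule goes by gene name and uses no measured value, but it was chosen with earlier results of these data known.

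Sucrose can be cleaved in either of 2 ways. Invertase splits it with water into glucose and fructose, and both sugars must then be phosphorylated with ATP. Sucrose synthase splits it with UDP into fructose and UDP-glucose, a reversible step that conserves the energy of the bond and costs the cell less ATP, and UDP-glucose also feeds cellulose and callose synthesis. Sucrose synthase transcripts are known to respond to low oxygen in maize and rice. The CIN series of rice names the cell-wall invertases, which act outside the cell on sucrose unloaded from the phloem.

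The samples were coleoptiles, the sheath around the shoot of a germinating grass, of Oryza sativa cv Nipponbare, 4 days old and kept at 28 °C in the dark. In the aerobic group, which the labels call the control, seeds germinated in air and the young leaf inside the sheath was removed by dissection. In the anoxic group, seeds germinated in an oxygen-free work station filled with 90% N2 and 10% H2, and per the labels no leaf was present to remove. Each group had 2 Affymetrix Rice Genome arrays of total RNA, and the labels do not say whether replicates came from separate cultures, so the spread behind each p-value is that of these arrays and may be technical.

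Levels are given as log2(intensity + 1) of the deposited GCRMA-normalized intensity, a scale that understates the change of dim probe sets. The brightest group mean of 64 reporter probe sets, which read sequences foreign to rice, was 4.05 and serves as the background level. A probe set was tested where its mean over the 4 arrays was at least 4, and called where limma's adjusted p was under 0.05 and the log2 change at least 1 in size. Germination without oxygen moved much of the array: 32.1% of 18826 tested probe sets were called, 16% higher and 16% lower in anoxia, and for 75.7% the arrays of the groups did not overlap. No coleoptile-defining marker was at hand. Leaf genes (CAB2R and RBCS1, 3 of 3 probe sets) and seed storage genes (14 of 15 probe sets) lay at or below background on all arrays. With only 3 probe sets of 2 leaf genes, read in seedlings kept in the dark, this cannot show that no leaf tissue remained. Symbols listed for root genes gave no probe set. The summed intensity of the 3 leaf probe sets was 19.9 and 21.4 in air and 19.5 and 20.0 in anoxia, that of the seed storage probe sets 126 and 134 against 132 and 127, and that of the 3 shoot meristem probe sets 98.8 and 87.9 against 84.2 and 115. The meristem genes went opposite ways on their tested probe sets. OSH1 read 3.16 and 3.06 in air, below background, and 4.60 and 5.28 in anoxia. It entered the test through its anoxic arrays alone, so that only a rise could be seen for it. OSH6 (also HOS16) read 6.37 and 6.26 against 5.53 and 5.51 (limma, adjusted p = 0.0241, under the fold threshold). The part of these marker genes in the results below was not tested.

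CIN1 and INV1, from the invertase route, fell in anoxia, while the sucrose synthase gene SUS2 rose to just past the fold threshold and SUS1 stood higher by less than that. By gene, 6 of the 11 had a tested probe set: SUS1, SUS2, SUS4, CIN1, CIN2 and INV1. Of 4 tested sucrose synthase probe sets 1 was called higher and 0 lower, and of 3 tested invertase probe sets 0 were called higher and 2 lower. With 3 of 7 called, against 32.1% of all tested probe sets, the share says nothing particular about these genes, and the comparison rests on the single genes below. In whole tissue, fewer cells of a type and less RNA per cell cannot be told apart.

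**Figure D1:**
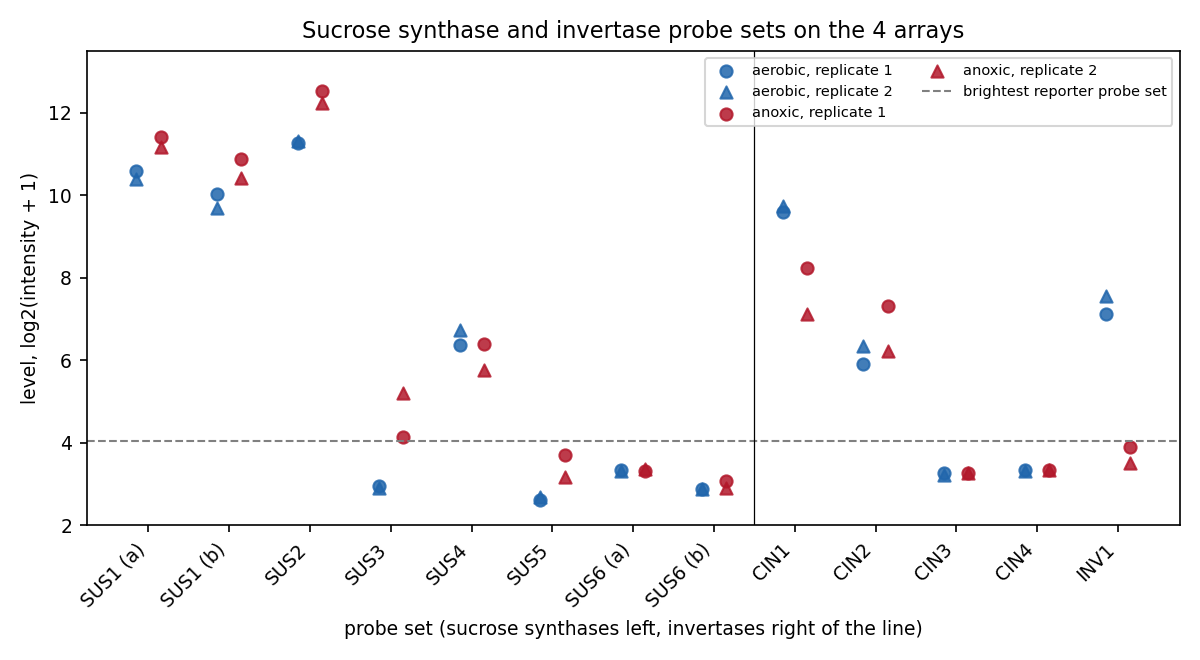
Level (log2 of intensity + 1) of the 13 probe sets on each of the 4 arrays, with sucrose synthases left and invertases right of the line; circles are replicate 1, triangles replicate 2, blue aerobic, red anoxic, and the dashed line is the brightest reporter probe set at 4.05. SUS1 and SUS2 are higher and CIN1 and INV1 lower in anoxia on both arrays, and SUS5, SUS6, CIN3 and CIN4 lie below the line on all arrays.

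SUS2 (LOC4340386) was the sucrose synthase with a called rise. It read 11.26 and 11.32 in air and 12.52 and 12.24 in anoxia, or deposited intensities of 2450 and 2560 against 5890 and 4852. Both anoxic arrays lay above both aerobic arrays, and the aerobic pair lay close together. The change was 1.09 ± 0.19 log2 units (SE, n = 2 arrays a group), or 2.13-fold, with a 95% interval from 0.59 to 1.60 (limma, adjusted p = 0.0150). Among all tested probe sets, 16.6% changed further upward. The call was lost when aerobic replicate 1 (limma, adjusted p = 0.0976), aerobic replicate 2 (0.0905) or anoxic replicate 1 (change 0.95, 0.0568) was left out, though the change stayed positive in each.

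SUS1 (LOC4333062) was read by 2 probe sets, marked (a) and (b) in the plots. The first read 10.58 and 10.40 in air and 11.42 and 11.16 in anoxia. The second, whose name suffix (x) marks probes that can also bind related sequences, read 10.04 and 9.69 against 10.87 and 10.41. On both probe sets the groups did not overlap, which was also so for 75.7% of all tested probe sets. The changes were alike in size, 0.80 ± 0.19 and 0.77 ± 0.25 log2 units (SE). Neither reached the fold threshold, with 95% intervals from 0.28 to 1.32 and from 0.09 to 1.45 (limma, adjusted p = 0.0348 and 0.0737). Counted by adjusted p alone, at any fold, 2 sucrose synthase probe sets (SUS2 and the first of SUS1) were higher, a criterion that 20.4% of all tested probe sets met in that direction. With each array left out in turn, the adjusted p of the first SUS1 probe set was 0.0689 to 0.156 and that of SUS2 0.0438 to 0.0976 (limma), so that SUS1 was never counted and SUS2 was counted only without the second anoxic array. With no filter on the mean level SUS1 was at 0.144. The probe letters were not used here, so the share of SUS1 and SUS2 signal that comes from near copies in the family is unknown.

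SUS4 (LOC4332788), another sucrose synthase, went the other way without passing the test. It read 6.38 and 6.73 in air and 6.39 and 5.77 in anoxia. Its groups overlapped, since anoxic replicate 1 equalled aerobic replicate 1 to within 0.01. The difference was -0.48 ± 0.29 log2 units (SE), with an interval from -1.26 to 0.30 that still holds a fall of 1 (limma, adjusted p = 0.255). Without anoxic replicate 2 it was -0.17 and without anoxic replicate 1 it was -0.79.

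SUS3, SUS5 and SUS6 were too dim to enter the test. SUS3 (LOC4343910) read 2.94 and 2.90 in air, below background, and 4.14 and 5.22 in anoxia, above it. Its anoxic mean stood at least 1.54-fold over the background level, and its difference of 1.75 log2 units was not called when all probe sets were fitted (limma, adjusted p = 0.270). Unlike the other members with a signal in anoxia, SUS3 was brighter on anoxic replicate 2 than on replicate 1. SUS5 (LOC4335447) read 2.61 and 2.68 against 3.70 and 3.18, so that its anoxic arrays were the higher ones but stayed below background. Both probe sets of SUS6 (LOC4331252) lay between 2.88 and 3.36 on all arrays and cannot be told from background.

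CIN1 (LOC4329561), a cell-wall invertase, fell in anoxia. It read 9.59 and 9.75 in air and 8.24 and 7.12 in anoxia, or intensities of 770 and 860 against 302 and 138. All anoxic values lay below all aerobic ones, but the anoxic pair differed by 1.12, a gap that only 4.58% of tested probe sets exceeded. The change was -1.99 ± 0.42 log2 units (SE), or 3.97-fold lower, with an interval from -3.11 to -0.87 (limma, adjusted p = 0.0245). Leaving out anoxic replicate 2 gave -1.43 and leaving out anoxic replicate 1 gave -2.55, both called. The call was lost without aerobic replicate 1 (adjusted p = 0.144) or aerobic replicate 2 (0.161).

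INV1 (LOC4346527), the other invertase that fell, went from a clear signal to background. It read 7.13 and 7.55 in air and 3.90 and 3.51 in anoxia, where both arrays lay below 4.05. The aerobic mean was 7.34 ± 0.30 and the anoxic mean 3.70 ± 0.27 (SD, n = 2). Against the background level the fall was therefore at least 9.75-fold, a bound that carries no test of its own. The test was of the measured difference, -3.63 ± 0.25 log2 units (SE), which uses the anoxic values below background (limma, adjusted p = 0.00210). INV1 entered the test through its aerobic arrays alone, since its anoxic mean was under 4, so that only a fall could be seen. It was called without each of the 4 arrays in turn, with adjusted p from 0.0282 to 0.0415 and a bound from 8.42-fold to 11.3-fold.

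CIN2 (LOC4335790), also named GIF1 and known as the cell-wall invertase that grain filling in rice depends on, did not follow CIN1 and INV1. It read 5.91 and 6.35 in air and 7.32 and 6.23 in anoxia. Anoxic replicate 1 was the highest of the 4 values and anoxic replicate 2 lay between the aerobic ones, so the groups overlapped. The difference was 0.65 ± 0.43 log2 units (SE), with an interval from -0.52 to 1.81 (limma, adjusted p = 0.295), and ranged from 0.10 without anoxic replicate 1 to 1.19 without anoxic replicate 2. CIN3, the gene next to CIN2 in the RefSeq gene order of assembly ASM3414082v1 with 0 protein-coding genes between them, read 3.23 to 3.28 on all arrays, and CIN4 read 3.33 to 3.35. Both were at background in either condition, so their levels could not be compared.

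**Figure D2:**
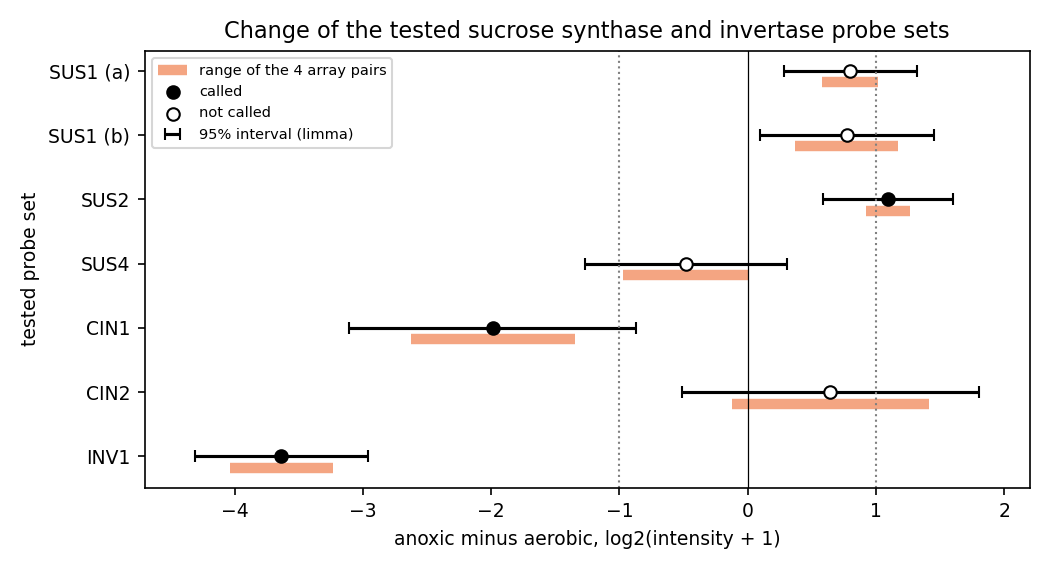
Anoxic minus aerobic difference in log2(intensity + 1) of the 7 tested probe sets, with limma's 95% interval (black) and the range of the 4 possible array pairs (orange); filled points were called, and dotted lines mark the fold threshold of 1. SUS2, CIN1 and INV1 are filled, and the intervals of SUS4 and CIN2 span 0.

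Set side by side, the members did not split cleanly by route. All invertase members carry a CIN name, that of the cell-wall invertases, so the invertase side here holds no other class of invertase. The tested sucrose synthase probe sets changed by -0.48 to 1.09 log2 units and the tested invertase probe sets by -1.99 (CIN1), 0.65 (CIN2) and, for INV1, a fall known only as a bound. Their medians were 0.79 over 4 probe sets, both SUS1 probe sets among them, and -1.99 over 3, which is the value of CIN1. The median over all tested probe sets was 0.07. INV1 could only be seen to fall, and SUS3, higher in anoxia, was too dim to be tested. The medians therefore depend on the filter and do not compare the routes. SUS4 lay on the side of the falling invertases and CIN2 on the side of SUS1 and SUS2, each with a 95% interval that spans 0. The weakest array pair of CIN1 (-1.35) differed by more than the strongest array pair of SUS2 (1.27). For INV1, which ended below background, only the bound of at least 9.75-fold can be set beside the 2.13-fold rise of SUS2. For scale, the median size of a change over all tested probe sets was 0.68, which the changes of SUS1, SUS2, CIN1 and INV1 exceeded and those of SUS4 and CIN2 did not.

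**Figure D3:**
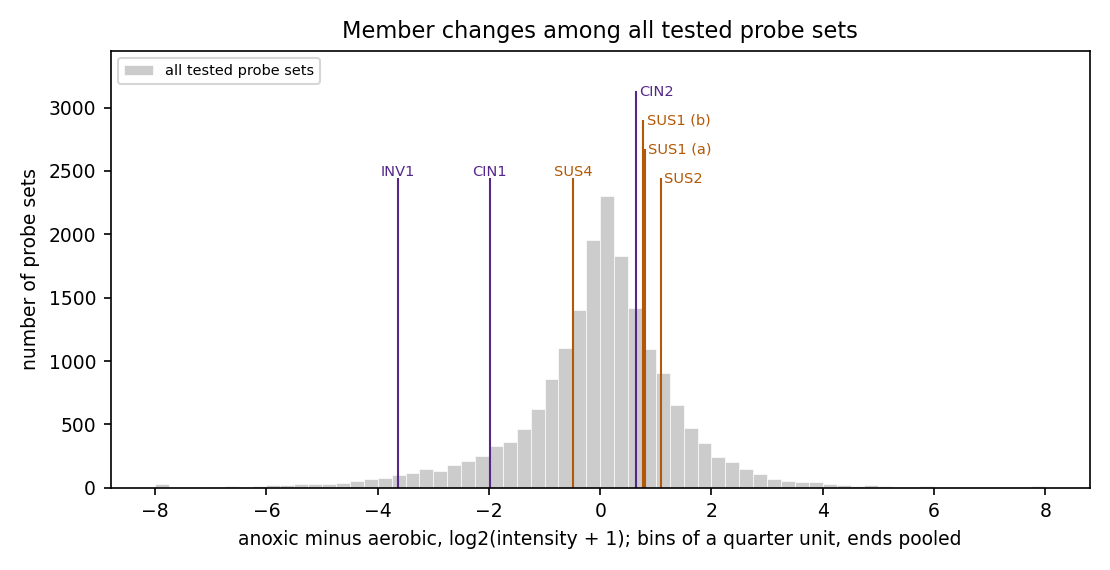
Number of tested probe sets (grey bars) by anoxic minus aerobic difference in log2(intensity + 1), with the 7 tested member probe sets as lines (orange sucrose synthases, purple invertases). SUS1, SUS2, SUS4 and CIN2 lie in the body of the distribution and CIN1 in its lower flank, where 8.55% of probe sets changed further downward; INV1 is drawn at its measured difference, although its anoxic arrays were below background.

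Replicate order within the anoxic pair was the same for all tested members. Anoxic replicate 1 read higher than replicate 2 on 7 of 7 tested probe sets, against 56.0% of all tested probe sets. The gap between anoxic replicates was 0.26 to 0.46 for SUS1, 0.28 for SUS2 and 0.38 for INV1, and 0.62 to 1.12 for SUS4, CIN1 and CIN2, while its median over all tested probe sets was 0.27. The size of the CIN1, CIN2 and SUS4 differences moved most with the anoxic array left out.

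**Figure D4:**
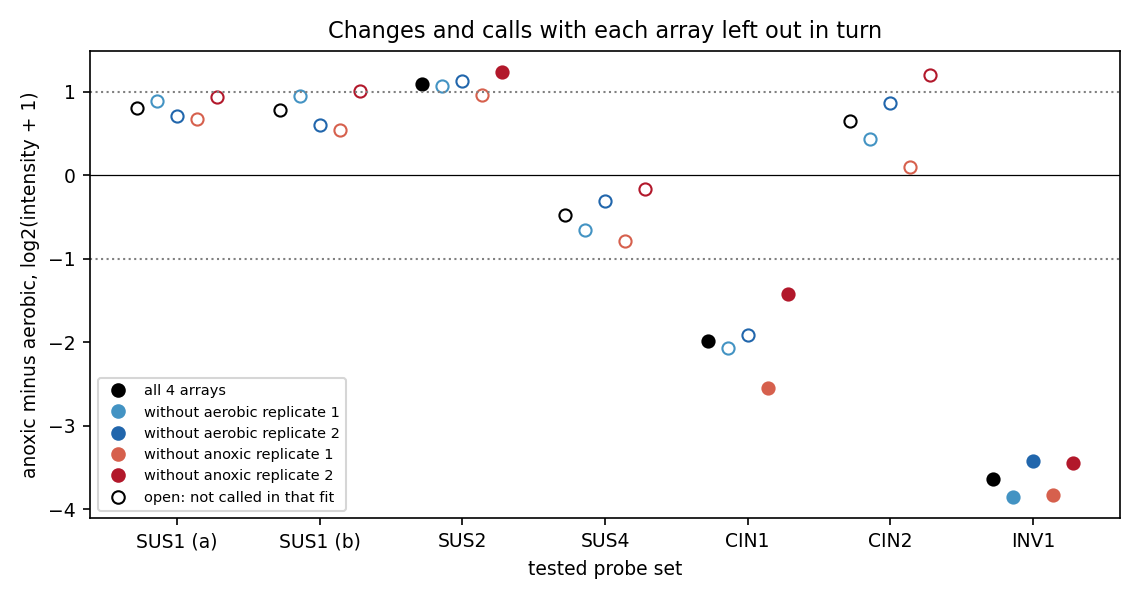
Anoxic minus aerobic difference in log2(intensity + 1) of the 7 tested probe sets with all 4 arrays (black) and with each array left out in turn (colours); filled points were called in that fit, and dotted lines mark the fold threshold. INV1 is filled in all 5 fits, SUS2 opens in 3 of them and CIN1 in 2, and no point changes sign.

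Among 1827 other genes with a symbol, those with the most similar pattern were found by the root mean square difference of levels centred on each gene's mean over the 4 arrays, which cover only 2 conditions. For SUS1 these were CEST (difference 0.01), GSK1, a GSK3-like kinase (0.04), and IAR (0.05). For SUS2 they were FCA, an RNA-binding regulator of flowering (0.06), DBB1 (0.07) and RK2 (0.07). For CIN1 the nearest was HCT2 (0.05), a hydroxycinnamoyl transferase name, which read 10.53 and 10.68 in air and 9.15 and 8.17 in anoxia, followed by OsPP2C48, a protein phosphatase (0.11), and IAA2, an auxin response repressor (0.12). For INV1 they were AOS (LOC4334233), an allene oxide synthase of jasmonate synthesis (0.12), HOX1, a homeobox gene (0.14), and JAZ13, a jasmonate repressor (0.14). These 3 genes stayed above background on all arrays, while both anoxic readings of INV1 lay below it. The distances from INV1 therefore rest partly on background values and do not establish a shared pattern. SUS4 lay nearest to RPP13-1, OsC3H33 and CSLE2 (0.04 to 0.05), and CIN2 to HSF09, a heat shock factor, ADI1 and OsPP2C61 (0.04 to 0.10).

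Neutral invertases, which split sucrose inside the cell and fall outside the CIN series, did not pass the test. NIN1 (LOC4332650) read 6.84 and 7.27 in air and 7.30 and 7.13 in anoxia, a difference of 0.16 ± 0.23 log2 units (SE). NIN3 (LOC4329537) read 7.42 and 7.56 against 8.03 and 7.38, a difference of 0.21 ± 0.28. For both, the groups overlapped, and the intervals, -0.45 to 0.77 and -0.53 to 0.96, hold no change of 1 log2 unit in either direction (limma, adjusted p = 0.614 and 0.573).

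The other genes of sucrose use came from a list of symbols for synthesis, hexose phosphorylation and transport (SPS, SPP, NIN, FRK, HXK, SUT, SWEET and others). It matched 41 genes, 25 of which were tested by their brightest probe set. Of these 5 rose and 6 fell, against 15.9% and 18% of all genes tested, and their median change was -0.05, against 0.03 over all genes. SUT1 entered the test through its aerobic arrays alone and SWEET1B through its anoxic arrays alone, so that for SUT1 only a fall and for SWEET1B only a rise could be seen; both are among the called genes counted here. Symbols for UDP-glucose pyrophosphorylase, phosphoglucomutase and invertase inhibitors matched no gene in this form and are not analysed here.

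FRK1 (LOC4324962), a fructokinase, which phosphorylates the fructose that both routes release, rose. It read 6.88 and 7.41 in air and 11.04 and 10.47 in anoxia, without overlap, a rise of 3.61 ± 0.31 log2 units (SE), or 12.2-fold (limma, adjusted p = 0.00316). It was called without each array in turn, with changes from 3.32 to 3.89. FRK2 shares its probe set with another gene and was left out. Of 6 tested hexokinase genes, whose enzymes phosphorylate glucose, 1 was called higher and 2 lower, against 15.9% and 18% of all genes tested. LOC4338010 (HXK6/HXK7) rose by 5.16 on the log2 scale (limma, adjusted p = 0.00155). LOC4326547 (HXK2/HXK6) and LOC4339361 (HXK5) fell by 2.10 and 1.84 (limma, adjusted p = 0.00285 and 0.00787). The call of LOC4339361 was lost without aerobic replicate 1 (change -1.809) or 2 (-1.865).

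On the side of synthesis, sucrose-phosphate synthase, which makes the phosphate precursor of sucrose, was called lower for 2 of 4 tested genes. Over all genes tested, 18% were called lower. SPS2 (LOC9267741) read 7.91 and 7.25 in air and 6.04 and 5.53 in anoxia, a change of -1.79 ± 0.32, and SPS4F (LOC4345220) read 8.61 and 8.73 against 7.86 and 7.35, a change of -1.06 ± 0.24 (limma, adjusted p = 0.0170 and 0.0287). Both genes had all anoxic values below all aerobic ones, and 75.7% of all tested probe sets had no overlap in either direction. SPS3F (LOC4341642) stood 0.79 ± 0.17 higher, under the fold threshold (adjusted p = 0.0261), SPS1 differed by -0.22 (0.361), and SPS2F was at background. SPP2 (LOC4328274), a sucrose-phosphatase that completes the synthesis, fell by 1.22 on the log2 scale (adjusted p = 0.00843), while SPP1 (LOC4325448) differed by -0.16 (0.579). A second pair of genes named SPP1 and SPP2 also carries the name of an intramembrane protease, and neither was called. Calls were lost for SPS2 without any 1 of the 4 arrays (0.0591 to 0.0991), for SPS4F without either aerobic array (0.136 and 0.158) or anoxic replicate 2 (change -0.81, 0.0751), and for SPP2 without aerobic replicate 1 (0.0682) or 2 (0.0639).

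**Figure D5:**
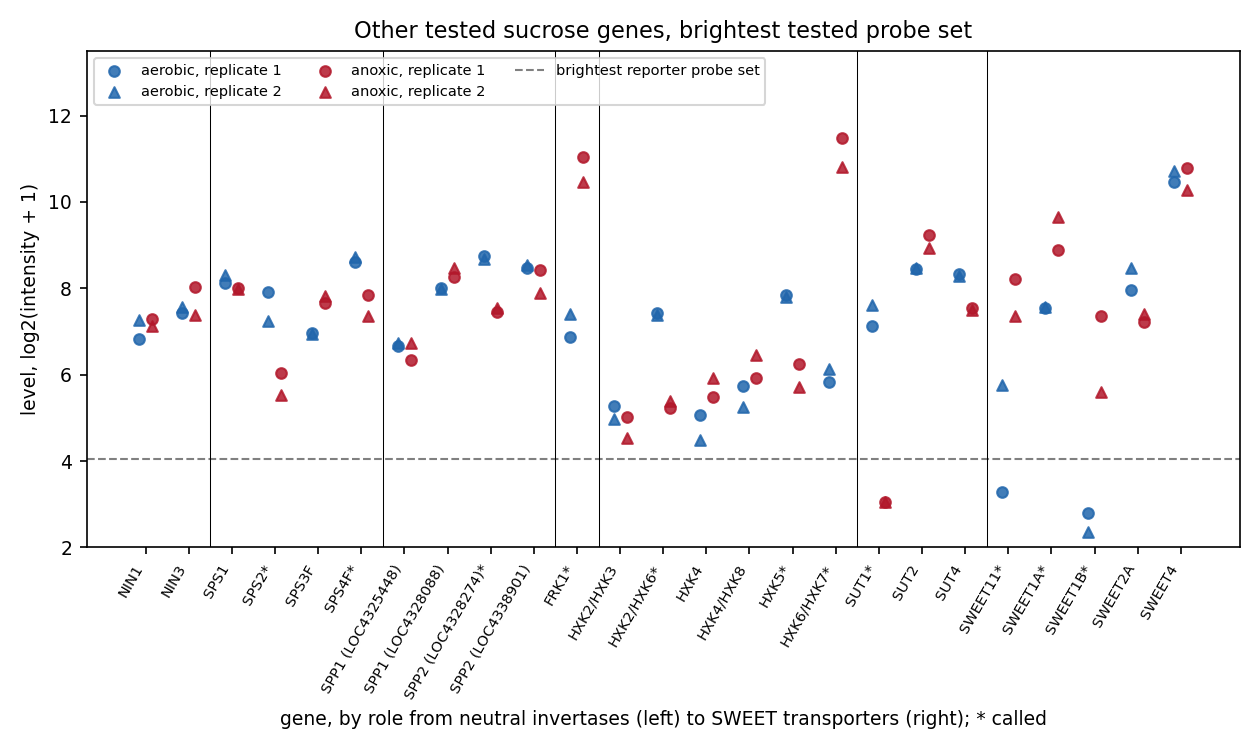
Level (log2 of intensity + 1) of 25 other sucrose genes on each array, by brightest tested probe set and ordered by role; symbols and colours are those of the plot of member levels, the dashed line is the brightest reporter probe set at 4.05, and an asterisk marks called genes. FRK1 and HXK6/HXK7 stand far higher in anoxia, SUT1 falls below the line, and NIN1 and NIN3 overlap.

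Transporters that bring sucrose or hexose to these enzymes went both ways. SUT1, a sucrose-proton symporter, fell at least 9.97-fold to background. SUT2 and SUT4 stayed under the fold threshold, at 0.62 and -0.78 log2 units (limma, adjusted p = 0.0634 and 0.0240). Of 14 matched SWEET genes 5 were tested and 3 were called higher, against 15.9% of all genes tested. SWEET1B, among these, passed the filter through its anoxic arrays alone. The tested SWEET2A and SWEET4 were not called, at -0.90 and -0.05 log2 units (limma, adjusted p = 0.0450 and 0.891). Too dim to be tested, SWEET14 and SWEET2B read above background only on aerobic replicate 2. SWEET1B rose at least 5.34-fold (2.91-fold if anoxic replicate 1 is left out, 9.81-fold if anoxic replicate 2 is). SWEET1A rose by 1.72 log2 units on its tested probe set, while its other probe set read 2.53 on all 4 arrays, below background. SWEET11 rose by 3.26 log2 units (limma, adjusted p = 0.0494), a size that rests partly on an aerobic array below background. The calls of SWEET1A and SWEET1B were lost without aerobic replicate 1 (0.121 and 0.104) or 2 (0.120 for each). SWEET11 differed between its aerobic arrays by more than any other tested gene of this list (3.29 and 5.77), changed by 2.02 without aerobic replicate 1 (0.109), and was also not called without anoxic replicate 1 (change 2.84, 0.213), without anoxic replicate 2 (3.69, 0.148) or with no pseudocount (0.0524).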

How the data were processed

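Total RNA of 2 aerobic and 2 anoxic coleoptile samples was read on 1-colour arrays. The deposited values are 1 normalized intensity per probe set, made with GCRMA per the submitters' processing notes; its version was not given in the sources used here, nor were its settings. Array medians of the deposited intensity, before the log, lay between 7.36 and 7.55, and no scaling was added. These medians lie in the background range, so they do not check the scaling of brighter probe sets. Of 57381 probe sets, 187 controls were left out; 22436 had 1 gene, 95 several and 34663 none in the platform annotation. The log2 of intensity plus a pseudocount of 1 was fitted with limma 3.58.1 in R 4.3.3 (lmFit, eBayes, 2-sided, Benjamini-Hochberg over 18826 probe sets); 2 residual degrees of freedom were joined by 2.34 prior ones, and the fit was tested on simulated data. An exact permutation of 2 against 2 arrays could not pass any usual threshold. A bound sets the brighter mean against the dimmer group or 4.05, whichever is higher, per array. Named genes are all members, the called genes of the sucrose list with its SPS, NIN and FRK genes, and the 3 most similar genes per tested member. A few more were chosen after their values were seen (SUT2, SUT4, SPP1, SWEET2A, SWEET2B, SWEET4, SWEET14, OSH1 and OSH6). Members and lists were chosen with earlier results of these data known. RefSeq sequence was not used here.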

Additional observations from a re-analysis of the deposited data

How the results depend on the processing

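With 2 arrays a group, the number of arrays limits every call. Over all tested probe sets 6036 were called, 3829 with a mean of at least 6, 1709 with no filter on mean level, and 2083 to 4253 with 1 array left out. The number of called sucrose synthase probe sets was 1, but 0 with no filter (SUS2, adjusted p = 0.0839) and 0 to 1 with 1 array left out. That of called invertase probe sets was 2, but 1 with a mean of at least 6 (INV1 was then not tested), 1 with no filter (CIN1, 0.240; INV1 stayed called, 0.0469) and 1 to 2 with 1 array left out. That of called sucrose list genes was 11, but 4 with no filter, where FRK1 was not called (0.0660), and 4 to 9 with 1 array left out. With no filter many more dim probe sets were tested, and 1 array fewer leaves 1 residual degree of freedom. With a pseudocount of 16, INV1 changed by -2.66 in place of -3.63. Intensities under 5 set to 5, no pseudocount, quantile normalization and an intensity trend kept the call and direction of each of the 7 tested member probe sets. The replicate numbers are shared by the groups only as labels: differences between replicates 1 and 2 correlated with r = -0.14 over tested probe sets. The replicate block gave 5556 calls over all probe sets, 1 sucrose synthase (SUS2, 0.0433; SUS1 was at 0.0695), 2 invertase and 9 list calls (SWEET11 at 0.0670 and SPS4F at 0.0595 were lost). A crossed replicate block, chosen after seeing the data, gave 6467, 1, 2 and 11. None of the 7 tested member probe sets changed direction under the alternatives in which it was tested; the dim members were not followed across settings.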
